A study of Mus musculus with 4 samples.

Results

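Apical-basal polarity complex genes encode the proteins that give an epithelial cell its apical and basal sides. The group described here holds 10 genes of the PAR, atypical PKC, Crumbs and Scribble complexes: Pard3, Pard6a, Pard6b, Pard6g, Prkci, Prkcz, Llgl1, Llgl2, Crb3 and Scrib. They were taken by gene symbol from a table of 51826 genes, and 10 of 10 were found. They were selected on their role in these complexes and on the measured TPM of Pard6a, which was seen to be high in the knockout before the set was drawn up, so the difference between genotypes is given for these genes as a description without a test.

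The cells were mouse embryonic stem cells of C57BL/6 background, taken through 3 days of mesoderm differentiation. Wild-type cells gave 2 libraries and Stk40-/- cells gave 2; the latter lack a pseudokinase gene, and the labels do not say that the libraries came from separate cultures or from more than 1 line per genotype, so the spread between them may be technical and a difference may be one between lines. Both groups had been kept on feeder fibroblasts with LIF, CHIR99021 and PD0325901, were passaged on gelatin to remove feeders, and received 10 ng/ml BMP4 on the first 2 days, followed by 1 uM CHIR99021 and 0.5% DMSO on the last. The serum replacement KSR was at 1% in the first step and at 15% in the second, in both groups. The series asks how Stk40 loss affects c-JUN protein and mesoderm formation.

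In a polarized cell the scaffold PAR3 and the adaptor PAR6 hold atypical protein kinase C at the apical side, where the membrane protein Crumbs also resides. Scribble, Lgl and Dlg mark the basolateral side, and atypical PKC and Lgl antagonize each other, since phosphorylation by the kinase releases Lgl from the membrane. The epiblast is a polarized epithelium, and cells that ingress through the primitive streak to form mesoderm give up this organization. The transcriptional repressors Snail and ZEB are known to repress Crb3 and Llgl2 in epithelial cells.

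Values are TPM, a measure of transcript abundance that accounts for the length of a transcript and the total of its library, so levels can be compared between genes. Each library summed to 1000000 TPM, the sequencing depth is unknown, and between 15139 and 15327 genes per library reached 1 TPM. Stk40 itself had 28.9 and 39.9 TPM in wild type, against 3.54 and 3.17 TPM in Stk40-/- cells. The labelled mesoderm identity was only partly borne out by markers listed for it: the streak gene T had 1025 and 535 TPM in wild type, against 355 and 217 TPM in Stk40-/- cells, Msgn1 had 90.6 and 7.22 TPM against 0.975 and 0 TPM, and Mixl1 had 24.7 and 6.77 TPM against 2.06 and 1.71 TPM, whereas Mesp1 was at 0 in 3 of 4 libraries and Kdr and Pdgfra stayed under 1 TPM in all 4. Eomes had 3.91 and 2.37 TPM in wild type, against 2.82 and 2.51 TPM in Stk40-/- cells, and overlapped between genotypes. Tbx6 overlapped too, at 2.33 and 0.468 TPM against 0.358 and 0.661 TPM. Msgn1 and Mixl1 also differed widely between the wild-type libraries. Pou5f1, a pluripotency gene, was between 370 and 473 TPM in all 4 libraries. Over the 15739 genes averaging 1 TPM or more, the median absolute log2 difference was 0.22 between the wild-type libraries and 0.20 between the Stk40-/- libraries. Between the genotype means it was 0.23. Means of 2 libraries vary less than single libraries, so this value is not directly comparable with those between replicates. These are bulk RNA values, in which fewer cells of a type and less RNA per cell cannot be told apart.

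All 10 genes were expressed in every library, and all 10 passed the filter on low values, a mean over the libraries of 1 TPM. In wild type they spanned a 7.88-fold range, from Llgl2 at 105 ± 3.97 TPM (SD, n = 2) to Pard6a at 13.4 ± 1.58 TPM. The wild-type order was Llgl2, Prkci, Llgl1, Scrib, Crb3, Pard3, Pard6b, Prkcz, Pard6g and Pard6a. Scrib and Crb3 overlapped in that order, as did the 3 lowest genes, each with its neighbour, while the other neighbours did not overlap. In Stk40-/- cells the order was the same except that Pard6a went from the tenth place to the sixth, between Crb3 and Pard3 and overlapping neither. In those cells Llgl1 overlapped Scrib, Scrib overlapped Crb3 and Prkcz overlapped Pard6g.

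**Figure D1:**
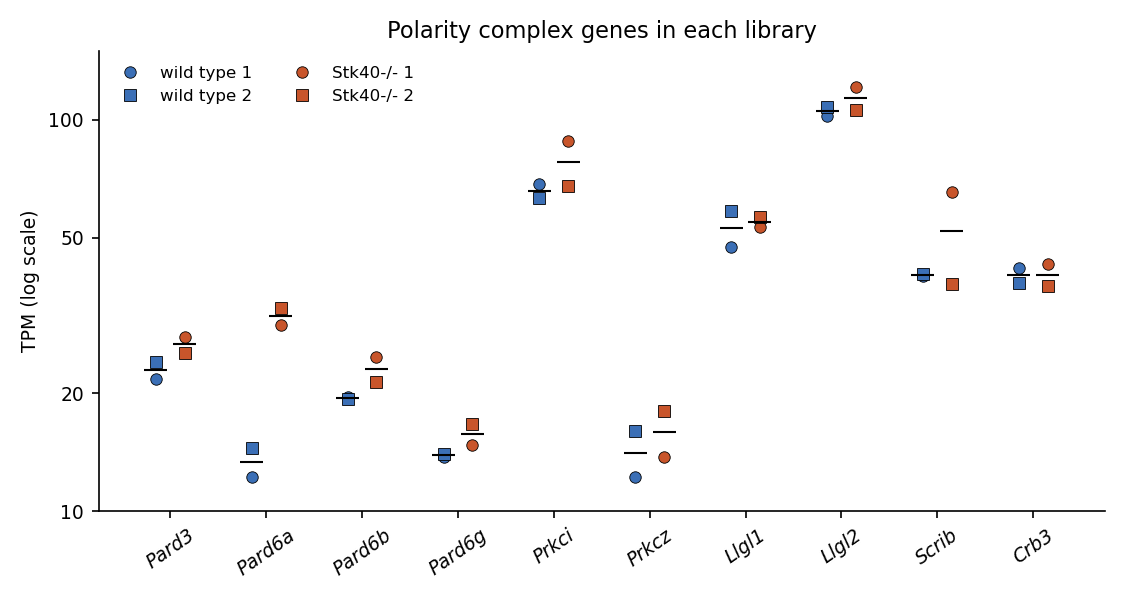
TPM on a log scale for the 10 polarity genes, with wild-type libraries in blue and Stk40-/- libraries in orange, circles for library 1, squares for library 2 and a line at each group mean. Pard6a is the gene with the widest gap between genotypes, 12.2 and 14.5 TPM against 30.0 and 33.1 TPM, and Scrib has 1 high Stk40-/- library at 65.5 TPM.

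Fold changes are differences in mean log2(TPM + 1), Stk40-/- minus wild type, with the moderated SE of limma; the added 1 shrinks those of low genes. All 10 were above 0, against 58.6% of all genes tested, although that of Crb3 was 0.003. Their median was 0.19, against 0.07 for all genes tested. In 4 of 10 the lower Stk40-/- library exceeded the higher wild-type one, against 27.5% of all genes tested, and in 0 of 10 both were below, against 16.6%. Pard6a alone had a log2 fold change of at least 1, which 3.84% of all genes tested reached. Since the difference between genotypes helped to choose these genes, nothing is read from these counts. With libraries scaled by their median ratio, the share of genes tested with both Stk40-/- libraries above was 20.9% and with both below 21.7%, so that 49.1% of the genes without overlap were higher in place of 62.4%. Under that scaling 8 of the 10 polarity genes were above 0, with Llgl1 at -0.01 and Crb3 at -0.06, and 3 of 10 were higher without overlap.

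The genes without overlap were the 4 PAR genes. Pard6a encodes a PAR6 adaptor, which binds atypical PKC and the small GTPase CDC42. Pard6a (ENSMUSG00000005699.16; GRCm38 chromosome 8, 105701148 to 105703496) had 12.2 and 14.5 TPM in wild type, against 30.0 and 33.1 TPM in Stk40-/- cells. Both Stk40-/- values were above 2 times the higher wild-type value, and the ratio of group means was 2.36. The log2 fold change was 1.18 (SE 0.15), and it lay between 1.07 and 1.30 with any 1 library left out. Among the 15739 genes tested, 2.95% had a larger positive fold change.

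The paralogs of Pard6a differed far less. Pard6b (ENSMUSG00000044641.7; chromosome 2, 168081004 to 168101203) had 19.6 and 19.4 TPM in wild type, against 24.7 and 21.4 TPM in Stk40-/- cells, with a log2 fold change of 0.23 (SE 0.13). Pard6g (ENSMUSG00000056214.8) had 13.8 and 14.05 TPM in wild type, against 14.7 and 16.7 TPM in Stk40-/- cells, with a log2 fold change of 0.16 (SE 0.14). Both were higher in both Stk40-/- libraries by small amounts, and for Pard6g the groups overlapped once libraries were scaled by their median ratio.

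The share of Pard6a within the PAR6 family restates its own TPM and is given as a description. Pard6a made up 26.9% and 30.2% of the summed TPM of the 3 paralogs in wild type and 43.2% and 46.6% in Stk40-/- libraries. Pard6b made up 42.9% and 40.4% in wild type and 35.6% and 30.0% in Stk40-/- libraries, where its own TPM was not lower, and the most abundant paralog was Pard6b in wild type and Pard6a in Stk40-/- cells. The summed TPM was 45.6 and 47.9 in wild type and 69.4 and 71.2 in Stk40-/- libraries.

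Pard3, the PDZ scaffold that anchors the complex at cell junctions (ENSMUSG00000025812.17; chromosome 8, 127063893 to 127612286), had 21.8 and 24.1 TPM in wild type, against 28.0 and 25.4 TPM in Stk40-/- cells. The nearest libraries of the 2 genotypes, at 24.1 and 25.4 TPM, lay close together, and the log2 fold change was 0.21 (SE 0.13), from 0.14 without wild-type library 1 to 0.28 without wild-type library 2. Only Pard3, Pard6a and Pard6b of the 10 had a fold change between group means larger than the difference within either pair of replicates. The same held for 31.2% of all genes tested.

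**Figure D2:**
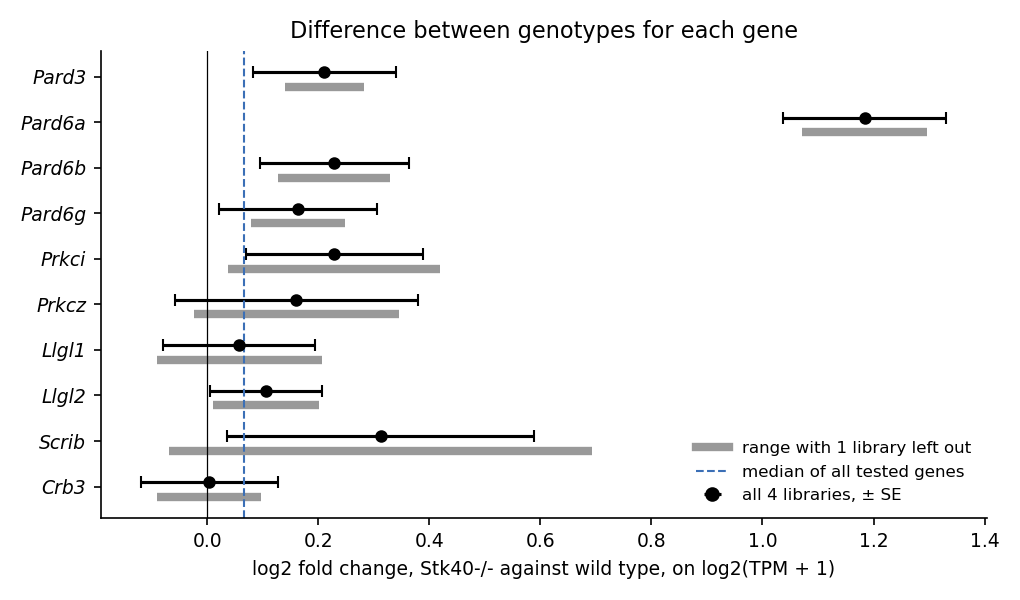
Log2 fold changes on log2(TPM + 1), with points and bars for the estimate ± SE from all 4 libraries, grey bars for the range with 1 library left out, and a dashed line at the median of all genes tested, 0.07. Pard6a, at 1.18, stands apart from the other 9 genes, which lie between 0.003 and 0.31.

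Promoter sequences are shown for 4 of the genes, to set Pard6a, whose RNA differed most, beside its paralog Pard6b, beside Prkcz, which shares an element with it, and beside Crb3, a known target of Snail and ZEB. RefSeq windows on GRCm38.p6, from 250 bases before to 50 bases after each annotated start, were found for 7 of the 10 genes, 12 windows in all, and not for Pard6g, Llgl2 and Scrib, and the stretches printed are the parts of these windows free of GENCODE vM21 exons. Pard6a has 7 annotated transcripts that begin near 1 of 2 starts on chromosome 8, at 105701148 and 105701647. The values are per gene, so the share of each start is not known. The first lies 45 bases from Acd, a telomere protein gene on the opposite strand, and the bases between them, chr8:105701103-105701147 on the plus strand, hold none of the motifs searched. The stretch before the second start is chr8:105701461-105701646, plus strand. That of Pard6b is chr2:168080754-168081003, plus strand, and that of Crb3 is chr17:57061951-57062140, plus strand. Capitals mark matches on either strand to CACCTG, the E-box of Snail and ZEB, or to TGACGTCA, the cAMP response element. That element is bound by several families of factors, ATF and JUN family dimers among them.
Pard6a, first start: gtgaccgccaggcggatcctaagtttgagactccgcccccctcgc
Pard6a, second start: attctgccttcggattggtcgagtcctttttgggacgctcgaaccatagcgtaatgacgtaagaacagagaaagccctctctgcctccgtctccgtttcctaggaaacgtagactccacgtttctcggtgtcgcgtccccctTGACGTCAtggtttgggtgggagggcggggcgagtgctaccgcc
Pard6b: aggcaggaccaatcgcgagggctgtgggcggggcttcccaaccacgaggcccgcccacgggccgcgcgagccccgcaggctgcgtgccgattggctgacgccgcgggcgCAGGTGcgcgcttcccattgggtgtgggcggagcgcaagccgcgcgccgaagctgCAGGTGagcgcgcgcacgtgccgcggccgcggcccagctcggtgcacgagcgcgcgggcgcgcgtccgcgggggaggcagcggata
Crb3: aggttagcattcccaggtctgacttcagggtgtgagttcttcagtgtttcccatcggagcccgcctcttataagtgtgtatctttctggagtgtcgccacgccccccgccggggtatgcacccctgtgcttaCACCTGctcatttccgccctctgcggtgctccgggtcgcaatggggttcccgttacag

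The motif letters were chosen after the values were known. TGACGTCA was present in 2 of the 7 genes with a window, Pard6a and Prkcz, and in 2.03% of the 27025 genes with windows of 300 bases. By window, it was in 2 of 12, against 1.79% of 32851 windows. The bases around it are chr8:105701577-105701626, plus strand, in Pard6a and chr4:155345773-155345822, minus strand, in Prkcz, with the element in capitals.
Pard6a element: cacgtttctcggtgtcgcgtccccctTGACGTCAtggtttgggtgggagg
Prkcz element: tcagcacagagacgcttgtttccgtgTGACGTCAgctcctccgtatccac
The element begins 44 bases before the second Pard6a start and 7 bases before 1 of the 3 Prkcz starts. Of these 2 genes, Pard6a, whose values helped to choose the set, did not overlap between genotypes and Prkcz did. Any part of the element in the RNA level of either gene was not tested. CACCTG on either strand was present in 5 of the 7 genes, Crb3, Pard3, Pard6a, Pard6b and Prkcz, and in 22.6% of all genes with windows. By window, it was in 7 of 12, with the overlapping windows of Crb3 counted separately, against 20.2% of all windows. Crb3 held 4 matches in a window, of which 1 lies in the printed stretch. Its windows lie inside the annotated gene, which begins at 57059105. All Pard3 matches were at an internal start, 127299612, and the window at its start at 127064056 held 0. The Pard6a match lies 37 bases after the second start, outside the printed stretch. The AP-1 element TGANTCA was in 0 of the 7 genes and in 8.97% of all genes with windows. A match is a run of letters and not evidence of binding, and no binding was measured.

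Atypical PKC is the kinase of the complex and comes from 2 genes. Prkci (ENSMUSG00000037643.14; chromosome 3, 30995747 to 31052959), which encodes PKC iota, had 68.7 and 63.0 TPM in wild type, against 88.3 and 67.5 TPM in Stk40-/- cells. Stk40-/- library 1 alone was high and the groups overlapped. Its log2 fold change of 0.23 (SE 0.16) was 0.04 without Stk40-/- library 1 but 0.42 without library 2.

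Prkcz (ENSMUSG00000029053.16; chromosome 4, 155260129 to 155361361), which encodes PKC zeta, had 12.2 and 16.01 TPM in wild type, against 13.8 and 18.1 TPM in Stk40-/- cells. The second library of each genotype was the higher one, and the difference between replicates, 0.36 and 0.37 on the log2 scale, exceeded the log2 fold change of 0.16 (SE 0.22), which was -0.02 without wild-type library 1 or without Stk40-/- library 2, 0.34 without wild-type library 2 and 0.35 without Stk40-/- library 1. Prkci made up 84.9% and 79.7% of the summed atypical PKC TPM in wild type and 86.5% and 78.9% in Stk40-/- libraries. The ranges of the 2 genotypes overlapped, unlike those of Pard6a within its family.

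**Figure D3:**
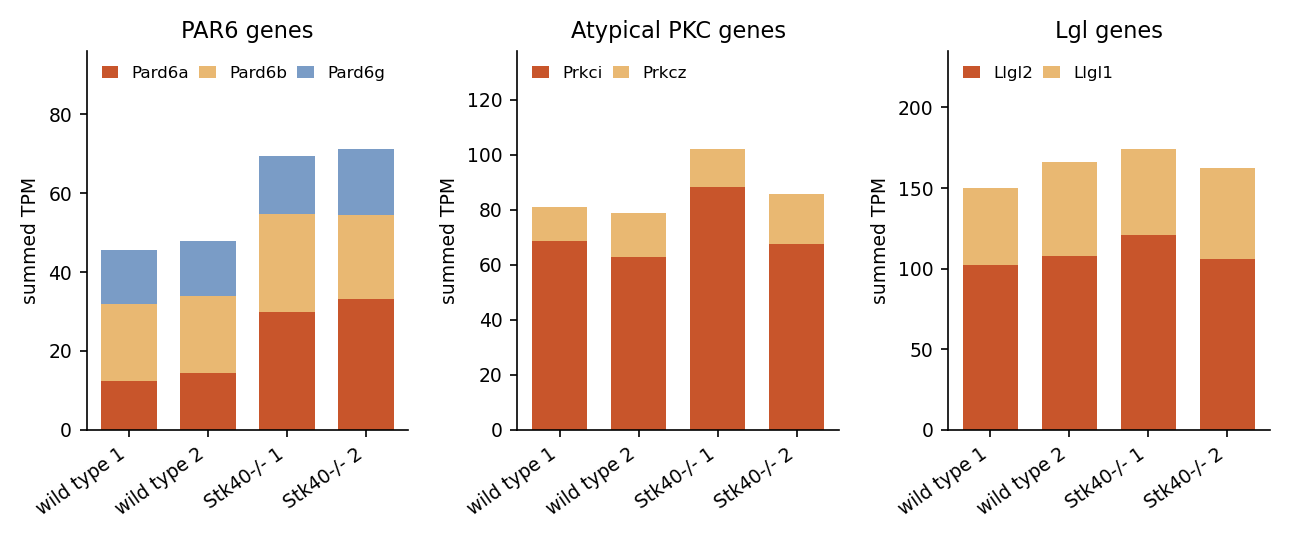
Stacked bars of TPM by library for the PAR6, atypical PKC and Lgl paralogs, each colour 1 gene. The Pard6a segment is larger in both Stk40-/- libraries (43.2% and 46.6% of the PAR6 sum) than in wild type (26.9% and 30.2%), while the Prkci and Llgl2 shares overlap between genotypes.

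On the basolateral side, Llgl1 and Llgl2 encode the Lgl proteins that oppose atypical PKC. Llgl2 (ENSMUSG00000020782.18; chromosome 11, 115824049 to 115855780) had 102 and 108 TPM in wild type, against 121 and 106 TPM in Stk40-/- cells, a log2 fold change of 0.11 (SE 0.10), which was 0.01 without Stk40-/- library 1. Llgl1 (ENSMUSG00000020536.12; chromosome 11, 60699723 to 60714186) had 47.3 and 58.4 TPM in wild type, against 53.2 and 56.3 TPM in Stk40-/- cells, a log2 fold change of 0.06 (SE 0.14). The groups overlapped in both genes, and for Llgl1 the sign turned to -0.09 without wild-type library 1. Llgl2 made up 68.4% and 64.9% of the summed Lgl TPM in wild type and 69.5% and 65.3% in Stk40-/- libraries.

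Scrib encodes Scribble, a large scaffold of the lateral membrane. Scrib (ENSMUSG00000022568.16; chromosome 15, 76047158 to 76069784) had 39.8 and 40.4 TPM in wild type, against 65.5 and 38.2 TPM in Stk40-/- cells. Library 1 of Stk40-/- cells lay above and the other below both wild-type libraries, and the replicate ratio of 1.72 in Stk40-/- cells was the widest of the 10 genes. The log2 fold change of 0.31 (SE 0.28) was -0.07 without Stk40-/- library 1 but 0.69 without library 2.

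Crb3, the Crumbs gene of simple epithelia (ENSMUSG00000044279.15; chromosome 17, 57059105 to 57065918), had 41.9 and 38.2 TPM in wild type, against 42.9 and 37.5 TPM in Stk40-/- cells. The group means differed by less than either pair of replicates, and the log2 fold change was 0.003 (SE 0.12), from -0.09 without Stk40-/- library 1 to 0.10 without Stk40-/- library 2. Stk40-/- library 1 was above library 2 in 6 of the 10 genes, Pard3, Pard6b, Prkci, Llgl2, Scrib and Crb3, against 54.0% of all genes tested.

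Genes that adjoin or overlap these genes were examined, because the counting is not stated to use strand. Around Pard6a, Acd had 24.5 and 25.4 TPM in wild type, against 27.5 and 26.2 TPM in Stk40-/- cells (difference in mean log2 of 0.10, SE 0.11, limma adjusted p = 0.737). Enkd1, on the opposite strand 154 bases beyond the other end of Pard6a, had 12.9 and 14.6 TPM in wild type, against 19.2 and 16.8 TPM in Stk40-/- cells (difference in mean log2 of 0.37, SE 0.15, limma adjusted p = 0.487). Neither shares exon bases with Pard6a. Both differed less than Pard6a did, but in both, as in Pard6a, the 2 Stk40-/- libraries were above the wild-type ones. That held for 27.5% of all genes tested. The median of the 836 genes tested on chromosome 8 was 0.08. Whether neighbouring genes differ together was not tested. Exons of Llgl1 share 64 bases with Flii, and exons of Crb3 share 14 bases with Dennd1c, both on the opposite strand, so a few reads of these pairs cannot be told apart. Flii and Dennd1c were also higher without overlap, with log2 fold changes of 0.13 and 0.40 (limma adjusted p = 0.64 and 0.57).

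The wider polarity machinery was examined in 5 lists of related genes that exclude the 10. Of 48 genes in these lists, 41 were tested. At a threshold of 0.05 on the adjusted p, limma called 0 higher and 0 lower (smallest adjusted p = 0.289). It likewise called 0% of all genes tested in either direction. Stk40 itself, with a log2 fold change of -3.01 (SE 0.21), was not called either (limma adjusted p = 0.139). A count of 0 thus does not show that no gene differed. At an unadjusted p under 0.05 there were 2 higher and 1 lower, against 6.48% and 4.51% of all genes tested. The groups did not overlap in 11 that were higher and 8 that were lower in Stk40-/- cells, against 27.5% and 16.6% of all genes tested. Their median log2 fold change was 0.06, against 0.07 for all genes tested.

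Among apical partners, the Crumbs complex list had 5 tested of 7 genes, with 0 called, a median of 0.11 and 1 gene higher without overlap. That gene, Lin7c, a small PDZ adaptor, had 96.3 and 59.4 TPM in wild type, against 108 and 99.3 TPM in Stk40-/- cells, with wild-type library 2 alone low. Its log2 fold change of 0.45 (SE 0.25, limma adjusted p = 0.575) ranged from 0.10 to 0.79 with 1 library left out. Mpp5, which encodes the Crumbs partner PALS1, had 19.1 and 11.6 TPM in wild type, against 19.0 and 13.6 TPM in Stk40-/- cells, with replicates further apart than genotypes. Crb2, another Crumbs gene, had 1.347 and 1.505 TPM in wild type and 1.83 and 1.48 TPM in Stk40-/- cells, also overlapping.

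Of 10 partners of PAR proteins and atypical PKC, 8 were tested, with 0 called, 3 higher and 2 lower without overlap and a median of 0.02. Wwc1, which encodes the atypical PKC substrate KIBRA, had 29.2 and 30.7 TPM in wild type, against 41.8 and 40.3 TPM in Stk40-/- cells (difference in mean log2 of 0.44, SE 0.10, limma adjusted p = 0.366). The replicates of each genotype lay close together, but the difference did not pass over all genes tested. Tiam1, a Rac activator that binds PAR3, had 8.22 and 8.08 TPM in wild type, against 9.85 and 12.1 TPM in Stk40-/- cells (limma adjusted p = 0.516). It lies on chromosome 16, whose 463 tested genes had a median log2 fold change of -0.17. The medians of the other autosomes and X were all positive, from 0.03 on chromosome 6 to 0.10 on chromosome 14. The source of this shift was not tested. Amot, an angiomotin gene, had 41.6 and 24.7 TPM in wild type, against 21.0 and 17.6 TPM in Stk40-/- cells (difference in mean log2 of -0.71, SE 0.28, limma adjusted p = 0.477), and its log2 fold change was between -1.07 and -0.34 with 1 library left out. Cdc42, the GTPase that PAR6 binds, is named after its values were seen: it had 402 and 387 TPM in wild type, against 325 and 343 TPM in Stk40-/- cells (difference in mean log2 of -0.24, SE 0.06, limma adjusted p = 0.401).

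Of the 11 genes of the Scribble and Dlg module, 9 were tested, with 0 called, 1 higher and 1 lower without overlap and a median of 0.06. Vangl2, a planar polarity gene, had 24.4 and 22.4 TPM in wild type, against 32.4 and 27.1 TPM in Stk40-/- cells. Lrrc1, a relative of Scrib, had 17.9 and 17.4 TPM in wild type, against 12.7 and 15.9 TPM in Stk40-/- cells. Erbin, another relative, overlapped, with wild-type libraries at 16.5 and 7.71 TPM. All 15 genes of the PAR1 kinase, LKB1 and 14-3-3 list were tested, with 0 called, 6 higher and 2 lower without overlap and a median of 0.09. Ywhae, the 14-3-3 epsilon gene, had 1521 and 1609 TPM in wild type, against 1908 and 1982 TPM in Stk40-/- cells (difference in mean log2 of 0.31, SE 0.05, limma adjusted p = 0.289). Stradb, which encodes an LKB1 adaptor, had 5.82 and 8.61 TPM in wild type, against 9.61 and 15.0 TPM in Stk40-/- cells. Its replicates differed by 0.50 and 0.59 on the log2 scale, against 0.69 between the genotype means. Cab39, another LKB1 partner, had 62.3 and 53.6 TPM in wild type and 66.1 and 68.8 TPM in Stk40-/- cells.

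Of 5 genes for repressors of epithelial genes 4 were tested, with 0 called and 0 at an unadjusted limma p under 0.05 in either direction. Both Stk40-/- libraries were below both wild-type ones in 3 of the 4, against 16.6% of all genes tested, while Zeb2 overlapped with a log2 fold change of 0.03, and the median of the 4 was -0.54. Snai1, the Snail gene, had 10.5 and 5.25 TPM in wild type, against 2.48 and 4.44 TPM in Stk40-/- cells, and its log2 fold change of -0.96 (SE 0.42, limma adjusted p = 0.502) lay between -1.40 and -0.52 with 1 library left out. Zeb1 had 2.58 and 1.61 TPM in wild type, against 0.731 and 1.34 TPM in Stk40-/- cells, and Twist1 had 6.50 and 7.56 TPM, against 5.29 and 4.24 TPM. Crb3 and Llgl2 overlapped between genotypes. Llgl2 had no promoter window, and whether these repressors act on either gene in these cells was not tested.

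**Figure D4:**
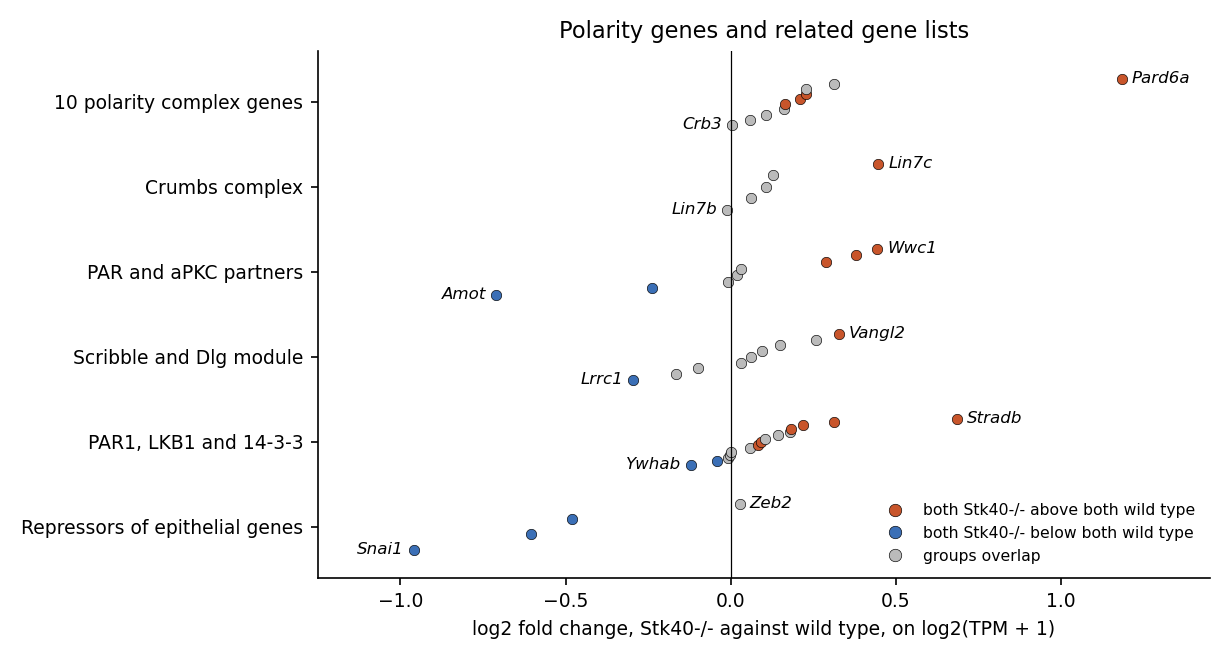
Log2 fold changes on log2(TPM + 1) for the 10 polarity genes and the tested members of the 5 related lists, each point 1 gene, orange or blue where the groups did not overlap and grey where they did, with the highest and lowest gene of each row named. Pard6a at 1.18 is the highest point shown, and Snai1 at -0.96 the lowest.

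Markers of other cell types are given beside these values. None of the 5 marker lists had a gene called, but Stk40 itself was not called either. The shares of all genes tested were 6.48% higher and 4.51% lower at an unadjusted p under 0.05, and 27.5% higher and 16.6% lower without overlap. Of 12 epithelial markers 11 were tested, 3 were higher and 1 lower at an unadjusted limma p under 0.05, 6 were higher and 2 lower without overlap, and the median log2 fold change was 0.22. Their summed level was between 2074 and 2494 TPM in wild type and between 2001 and 2142 TPM in Stk40-/- libraries, and Ovol1 was under 1 TPM in every library. Cdh1, which encodes E-cadherin, had 264 and 268 TPM in wild type, against 329 and 325 TPM in Stk40-/- cells. Grhl2, an epithelial transcription factor gene, had 6.72 and 7.60 TPM in wild type and 11.1 and 12.1 TPM in Stk40-/- cells, whereas Krt8, a keratin gene, had 723 and 476 TPM and then 408 and 359 TPM. Of 8 nascent mesoderm markers 4 were tested and 3 were lower without overlap, with sums from 552 to 1148 TPM in wild type and from 222 to 362 TPM in Stk40-/- libraries. Of 8 feeder fibroblast markers 4 were tested and 3 were lower without overlap, with sums from 20.8 to 31.6 TPM in wild type and from 16.3 to 19.8 TPM in Stk40-/- libraries, and Lum was at 0 in 2 libraries and Fap in 2. Of 5 neural markers 4 were tested and 3 were higher without overlap. The sums of the 5 ran from 65.7 to 67.5 TPM in wild type and from 71.0 to 102 TPM in Stk40-/- libraries. Nes, the largest part of these sums, overlapped, with 54.3 and 52.0 TPM in wild type and 52.9 and 73.0 TPM in Stk40-/- libraries. Sox1, 1 of the 3, was between 0.50 and 1.96 TPM. Of 4 pluripotency markers 1 was higher and 1 lower without overlap, with sums from 514 to 647 TPM in wild type and from 624 to 677 TPM in Stk40-/- libraries. The part of these marker levels in the values of the polarity genes was not tested.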

How the data were processed

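Gene expression was measured by sequencing of polyadenylated RNA in 4 mouse libraries, 2 wild type and 2 Stk40-/-, grouped and numbered by sample title. Per the file headers, the authors deposited 1 TPM value for each gene and library. The submitters' processing notes name CASAVA 1.7 and Salmon 0.8.2 and, as build, hg38, although the gene IDs are mouse Ensembl IDs. Per the labels, read pairs had 100 or 150 bases depending on the instrument; the instrument of each library was not stated, so no such term could be fitted. TPM keeps no depth, and Salmon divides reads among similar transcripts. There were 0 per-sample columns left unused.

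limma 3.58.1 (R 4.3.3) was fitted to log2(TPM + 1) of the 15739 genes whose mean reached 1 TPM, with an intensity trend, no replicate block and Benjamini-Hochberg adjustment at 0.05. The smallest p of an exact permutation test of 2 against 2 libraries is 0.333. The procedure was tested on simulated data with independent noise, where the check was on mean fold changes and not on the genes called. Positions came from GENCODE vM21 on GRCm38, with 51633 of 51826 IDs matched without version, and promoters from RefSeq on GRCm38.p6.

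The 10 genes, the lists and the tests were chosen with earlier results of these data known. Named genes were the 10, Stk40, genes within 2 kb of Pard6a or sharing exon bases with any of the 10, and up to 3 genes per related list with the largest absolute fold change. Cdc42 and the marker genes named were chosen outside this rule, with their values seen. The alternatives were 2 other pseudocounts, 2 other filters, 2 scalings, a replicate block, no intensity trend and leaving out each library.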

Additional observations from a re-analysis of the deposited data

How the results depend on the processing

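The count of genes called was 0 among all genes tested and 0 among the related polarity genes under all 12 alternatives, with the smallest adjusted p between 0.0694 (mean of at least 5 TPM) and 0.319 (without Stk40-/- library 1). The median log2 fold change of the 10 genes, 0.19, was 0.13 with median-ratio scaling and ranged from 0.11 to 0.24 with 1 library left out. The number of the 10 without overlap, 4, ranged from 6 to 8 with 1 library left out, where fewer libraries make overlap less likely. Not all were then higher in Stk40-/- cells, but 5 of 6 without wild-type library 1 and 5 of 7 without Stk40-/- library 1. The share of all genes tested without overlap was not computed with a library left out, so nothing is read from these counts. Of 110 values of single genes under alternatives, 9 had the other sign, all of them of Crb3, Llgl1, Prkcz or Scrib. Pard6a lay between 1.07 and 1.30 under every alternative run. With the replicate number as a block the median of 0.19 could not change. There were 0 calls, and 2118 genes had an unadjusted limma p under 0.05 in place of 1730. The deviations of same-numbered libraries correlated at r = 0.09 across genes, which are not independent replicates, and the labels do not say that a number marks a shared culture. Where a lone library was left in a group, its spread was assumed to be that of the other group. The depth behind each TPM is unknown, so counting error could not be separated from other spread.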
